A study of Komagataella phaffii GS115 with 12 samples.

Results

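The genes described here belong to the mitochondrial respiratory chain and ATP synthase. They are nuclear genes of ATP synthase, which need not all be subunits, and of cytochrome c oxidase, the bc1 complex and cytochrome c. Genes of NADH dehydrogenases, of the ADP/ATP and phosphate carriers and of porin are included. The genes were chosen by name, from 38 systematic gene names of the form used for Saccharomyces cerevisiae. Earlier results of these data were known when the choice was made. Of the 38 names, 18 had a row among the 2390 rows of the expression table. These were 7 of 12 for ATP synthase, 4 of 9 for cytochrome c oxidase, 4 of 8 for the bc1 complex, 2 of 2 for cytochrome c and 1 of 5 for the carriers and porin. Neither of the 2 names for NADH dehydrogenases had a row. For ATP synthase YPL078C, YPL271W, YDL004W, YDR377W and YPR020W had no row. For cytochrome c oxidase these were YGL187C, YMR256C, YLR395C, YLR038C and YGL191W. For the bc1 complex they were YBL045C, YPR191W, YDR529C and YJL166W, for the carriers and porin YMR056C, YBR085W, YJR077C and YNL055C, and for NADH dehydrogenases YML120C and YMR145C.

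The respiratory chain passes electrons from NADH and other donors through ubiquinone to the bc1 complex, which reduces cytochrome c. Cytochrome c oxidase passes these electrons to oxygen, and the protons pumped on the way drive ATP synthase, while the carriers and porin move ADP, ATP and phosphate across the mitochondrial membranes. In methylotrophic yeasts growing on methanol, NADH from the oxidation of formaldehyde feeds this chain. ATP is also one of the substrates, with L-methionine, from which methionine adenosyltransferase makes S-adenosyl-L-methionine.

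RNA came from Komagataella phaffii GS115, also known as Pichia pastoris, and was measured on 12 one-colour NimbleGen arrays, 3 for each of 4 groups, each from a separate culture. All cultures were grown in BSM medium and induced with methanol. The control strain was GS115 with the empty vector pPIC3.5K, sampled at 72 h of induction. The strain GS115/DS56, called DS56 here, carried the recombinant methionine adenosyltransferase gene DS56, also at 72 h. The strain G12-CBS carried DS56 and had the weak promoter G12 in place to lower CYS4, the gene of cystathionine beta-synthase. It was sampled at 72 h and, in separate cultures, at 24 h. The 3 groups at 72 h had received L-methionine at 24 h of induction, and the 24 h group had received none, so time and feeding cannot be told apart in G12-CBS. The sources used here do not give the number of gene copies or of clones per strain.

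The deposited values are on a log2 scale, and the median of all values was 6.64. The rows carry S. cerevisiae names, none of which occurs in the K. phaffii gene table (0 of 2390 rows), and neither the expression table nor the K. phaffii gene table pairs them with products. Each row's class is therefore that of its name in S. cerevisiae, given as background, and the K. phaffii transcript behind a row was not determined. Differences are tested only within a row, between groups. Brightness is used to sort rows and not as a measure of which transcript is more abundant. The median SD between the 3 arrays was 0.185 in the control, 0.112 in DS56, 0.177 in 72 h G12-CBS and 0.0948 in 24 h G12-CBS over all rows, and 0.183, 0.111, 0.151 and 0.0679 over the 18 rows described here. Array medians were 6.59 to 6.62 in the control and in 72 h G12-CBS and 6.65 to 6.66 in DS56 and in 24 h G12-CBS. Of the engineered genes, no row bore the name noted for CYS4, so its level was not checked. YDR502C, noted for methionine adenosyltransferase, was at 10.17 to 10.76 on the control arrays. On the 9 arrays of the engineered strains it was at 15.58 to 15.76. The highest value of every array was 15.76, so differences among the engineered groups could not be read from this row. YLR180W, also noted for methionine adenosyltransferase, had means of 7.06 in the control, 8.75 in DS56, 8.04 in 72 h G12-CBS and 8.72 in 24 h G12-CBS.

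Across the 4 groups, 10 of the 18 rows differed by limma's moderated F test (p adjusted by Benjamini-Hochberg over all rows, under 0.05, the threshold for every call), against 31% of all rows. Brighter rows were called more often in the whole table, so the counts are also given by level. YBL099W, YJR121W, YIL111W and YBL030C, the 4 with a mean over the 12 arrays of at least 8, all passed, where 76.9% of the 160 rows of that level did, and 6 of the 14 dimmer rows passed, against 27.7%. The rows that passed were YBL099W, YJR121W, YDR298C and YDL181W of ATP synthase, YNL052W, YIL111W and YDL067C of cytochrome c oxidase, YOR065W of the bc1 complex, YJR048W of cytochrome c, and YBL030C of the carriers and porin. Of these, YJR048W did not pass after median centring (adjusted p = 0.0599), quantile normalization (0.0591) or with a replicate block (0.0603), and YOR065W did not pass after median centring (0.0797), with a variance trend (0.0627) or with array weights (0.0585). With 1 array left out, YJR048W did not pass without any of the 3 DS56 or 3 G12-CBS 24 h arrays or G12-CBS 72 h replicate 1 or 3 (0.0596 to 0.192), and YOR065W without replicate 2 or 3 of the control or of 24 h G12-CBS or DS56 replicate 1 or 2 (0.0628 to 0.0906). YKL016C, which did not pass (0.074), passed after median centring (0.0353) and quantile normalization (0.0263). The 8 rows that did not pass had means over the 12 arrays of 6.47 to 6.78, near the median of all values. Of the rows that passed, YNL052W, YDL181W and YJR048W had means in the same range (6.51, 6.54 and 6.59). None of the 18 rows, passing or not, was shown to lie above background.

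**Figure D1:**
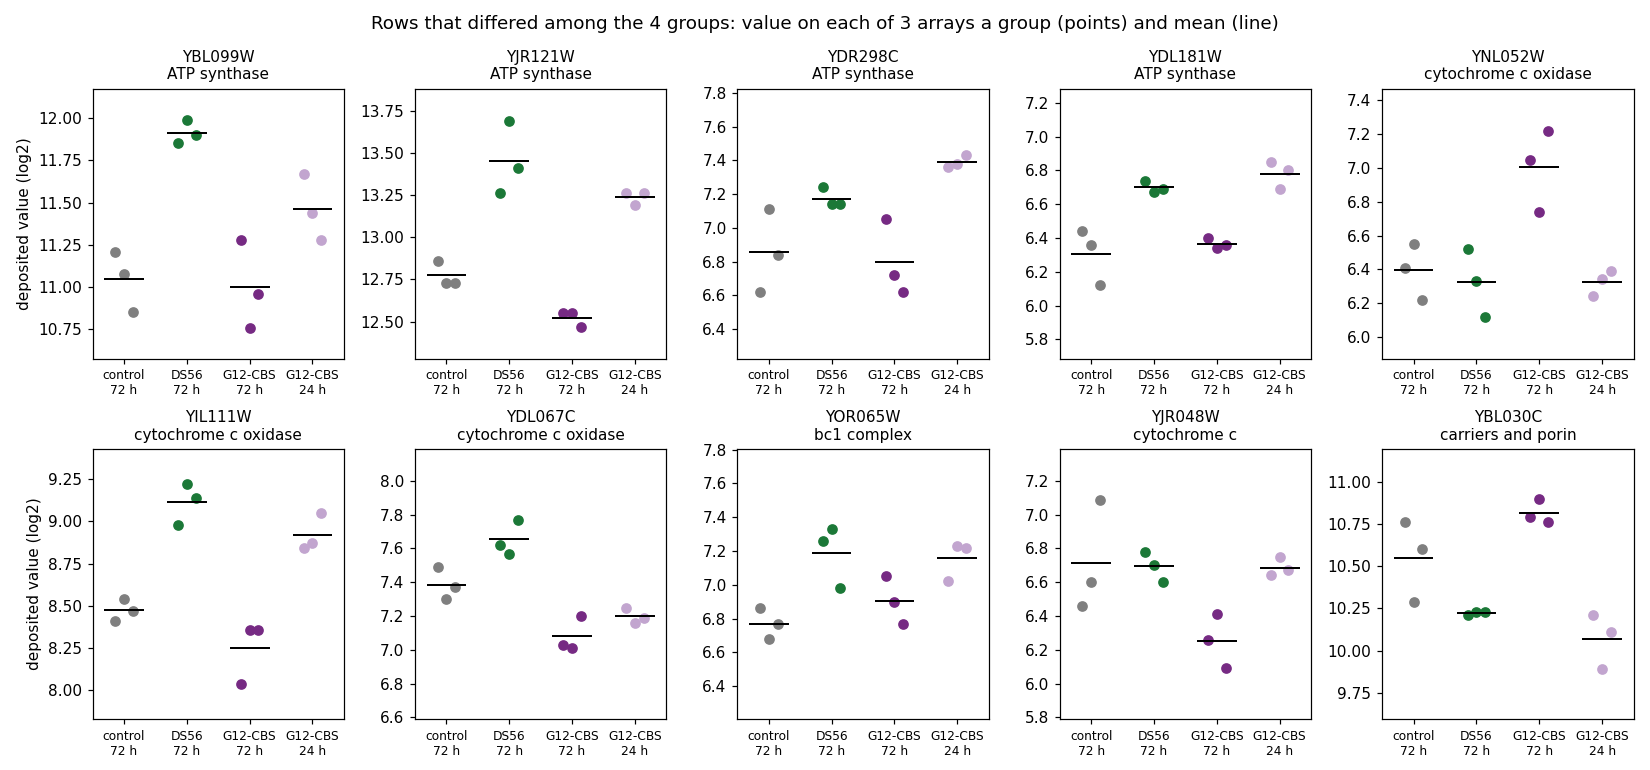
Deposited log2 value (vertical axis, each panel spanning the same 1.6 log2 units) of the 10 rows that passed the F test, by group (horizontal axis), with each of the 3 arrays as a point and their mean as a line. YJR121W and YIL111W are high in DS56 and 24 h G12-CBS and low in the control and 72 h G12-CBS. YBL030C is the other way round, and YNL052W is high in 72 h G12-CBS. YBL099W is highest in DS56, with the mean of 24 h G12-CBS between those of DS56 and the control.

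Many of the 18 rows shared a division of the groups. In 10, the means of DS56 and of 24 h G12-CBS both lay above the means of the control and of 72 h G12-CBS, and in 3 (YKL016C, YNL052W and YBL030C) both lay below. Of the 10, 6 passed the F test, and YBR039W, YLR295C, YHR051W and YEL039C did not (adjusted p = 0.116, 0.689, 0.571 and 0.831). Of the 3, YKL016C did not. Over all rows these shares were 35.6% and 24.3%, and 30.1% and 30.7% after median centring of the arrays, a step that left the counts of 10 and 3 as they were. The array medians and the spread between replicates split the groups in the same way, and their part in this division beyond the centring was not tested. Slides and scan dates were not used here, so an array batch that follows this division cannot be told apart from it.

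**Figure D2:**
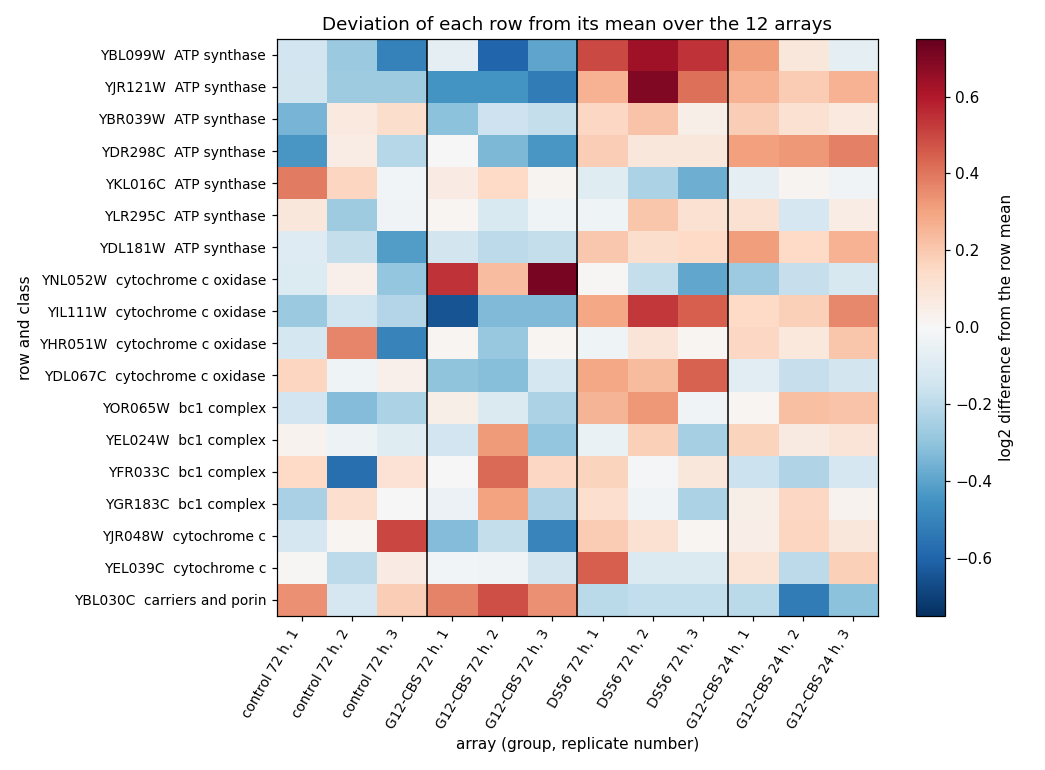
Difference of each value from its row's mean over the 12 arrays (colour, log2 units) for the 18 rows (vertical axis, with class) on the 12 arrays (horizontal axis, group and replicate number). The 6 arrays of the control and of 72 h G12-CBS, on the left, are mostly blue for ATP synthase rows and the 6 of DS56 and 24 h G12-CBS mostly red, with YKL016C, YNL052W and YBL030C reversed.

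ATP synthase uses the proton gradient to make ATP from ADP and phosphate, and its 7 rows held the brightest row of the set. YJR121W read 12.86, 12.73 and 12.73 on the control arrays, 13.26, 13.69 and 13.41 in DS56, 12.55, 12.55 and 12.47 in 72 h G12-CBS, and 13.26, 13.19 and 13.26 in 24 h G12-CBS. All 6 arrays of DS56 and of the 24 h cultures thus lay above all 6 of the control and of 72 h G12-CBS. Neighbouring levels of the deposited scale were a median of 0.0898 apart around this row, so repeated values among replicates are steps of the scale, and its SDs of 0.04 in both G12-CBS groups may understate the spread. YJR121W rose 1.60-fold in DS56 over the control, a log2 difference of 0.68 ± 0.12 (SE, n = 3 each, limma's adjusted p = 0.000845). It was lower in G12-CBS than in DS56 at 72 h, by a log2 difference of -0.93 ± 0.12 (adjusted p = 1.36e-05), and lower at 72 h than at 24 h in G12-CBS, with a difference of -0.71 ± 0.12 (adjusted p = 0.000276). The G12-CBS 24 h cultures were 0.46 ± 0.12 above the control (adjusted p = 0.0142), a call that was lost without G12-CBS 24 h replicate 1 or 3 (adjusted p = 0.0571 and 0.054). The difference of 72 h G12-CBS from the control was -0.26, with a 95% interval of -0.51 to 0.00 (adjusted p = 0.229).

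YBL099W had the same order of group means as YJR121W. It read 11.21, 11.08 and 10.85 in the control, 11.85, 11.99 and 11.90 in DS56, 11.28, 10.76 and 10.96 in 72 h G12-CBS and 11.67, 11.44 and 11.28 in 24 h G12-CBS. The DS56 arrays stood above all 9 others, and the 72 h and 24 h arrays of G12-CBS met at 11.28. The rise of YBL099W in DS56 over the control was 1.82-fold, a log2 difference of 0.86 ± 0.15 (SE, n = 3 each, limma's adjusted p = 0.000391), and 72 h G12-CBS was lower than DS56, with a difference of -0.91 ± 0.15 (adjusted p = 0.000133). In G12-CBS it was lower at 72 h than at 24 h, with a log2 difference of -0.46 ± 0.15 (adjusted p = 0.0269). This last call was lost with only the 6 arrays compared (adjusted p = 0.0507) and without G12-CBS 72 h replicate 2 or 3 or G12-CBS 24 h replicate 1 or 2 (adjusted p = 0.062 to 0.152). Between 72 h G12-CBS and the control the difference was -0.05, with a 95% interval of -0.35 to 0.26.

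The other 5 ATP synthase rows had means near the median of all values. YDR298C read 6.62, 7.11 and 6.84 in the control, 7.24, 7.14 and 7.14 in DS56, 7.05, 6.72 and 6.62 in 72 h G12-CBS and 7.36, 7.38 and 7.43 at 24 h. Its 24 h arrays lay above the other 9. In G12-CBS it was lower at 72 h than at 24 h, with a log2 difference of -0.59 ± 0.14 (SE, n = 3 each, limma's adjusted p = 0.0044), and at 24 h it was 0.53 ± 0.14 above the control (adjusted p = 0.0116). DS56 was above the control by 0.44 (adjusted p = 0.04) without control replicate 2, and 72 h G12-CBS was below DS56 without control replicate 1 or 2 or G12-CBS 72 h replicate 1 (0.0175 to 0.0378), both short of the threshold with all arrays. YDL181W read 6.44, 6.36 and 6.12 in the control, 6.74, 6.67 and 6.69 in DS56, 6.40, 6.34 and 6.36 in 72 h G12-CBS, and 6.85, 6.69 and 6.80 at 24 h. As in YJR121W, the arrays of DS56 and of the 24 h cultures all lay above the other 6. YDL181W was 0.39 ± 0.12 higher in DS56 than in the control (adjusted p = 0.027) and 0.47 ± 0.12 higher at 24 h than in the control (adjusted p = 0.00872). It was also lower in 72 h G12-CBS than in DS56, with a difference of -0.34 ± 0.12 (adjusted p = 0.0473), and lower than at 24 h, with a difference of -0.41 ± 0.12 (adjusted p = 0.015). The call for DS56 over the control was lost after median centring (adjusted p = 0.0506), after quantile normalization (0.0526), with only the 6 arrays compared (0.0623), and without control replicate 3 or any DS56 array (0.0592 to 0.109). The call against DS56 was lost in 6 of the 8 fits to all arrays or to the 6 compared, such as median centring (0.0853) and a replicate block (0.0527), and without any 1 array of the engineered groups (0.0559 to 0.132), and the fall from 24 h without G12-CBS 24 h replicate 1 or 3 (0.056 to 0.0727).

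YKL016C was the 1 ATP synthase row that fell in DS56. It read 6.95, 6.72 and 6.54 in the control, 6.47, 6.32 and 6.19 in DS56, 6.62, 6.71 and 6.58 in 72 h G12-CBS, and 6.49, 6.58 and 6.53 at 24 h. The DS56 arrays were below the other 9. The fall was a log2 difference of -0.41 ± 0.13 (SE, n = 3 each, limma's adjusted p = 0.0317). It did not pass with only the 6 arrays compared (adjusted p = 0.0778), with array weights (0.0581), or without control replicate 1 or 2 or DS56 replicate 2 or 3 (0.0503 to 0.134). YBR039W and YLR295C passed in no comparison, and their largest differences were -0.35 (adjusted p = 0.0645) for YBR039W in G12-CBS against DS56, and 0.16 (adjusted p = 0.411) for YLR295C in DS56 against the control. YBR039W passed in 72 h G12-CBS against DS56 without control replicate 1 or 3 (0.0275 and 0.0494). It passed at 72 h against 24 h without control replicate 1 (0.0316), with array weights (0.042) and with only the 6 arrays compared (0.0439).

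Cytochrome c oxidase is the end of the chain, where oxygen is reduced, and 2 of its 4 rows, YIL111W and YNL052W, differed in opposite directions between 72 h G12-CBS and both DS56 and the 24 h cultures. YIL111W, with a mean of 8.69 over the 12 arrays, read 8.41, 8.54 and 8.47 in the control, 8.98, 9.22 and 9.14 in DS56, 8.04, 8.36 and 8.36 in 72 h G12-CBS, and 8.84, 8.87 and 9.05 at 24 h. The 4 groups fell into the same division as for YJR121W, with no overlap. YIL111W rose 1.56-fold in DS56 over the control, a log2 difference of 0.64 ± 0.13 (SE, n = 3 each, limma's adjusted p = 0.00177). It was lower in 72 h G12-CBS than in DS56, with a difference of -0.86 ± 0.13 (adjusted p = 5.09e-05), and lower than at 24 h, with a difference of -0.66 ± 0.13 (adjusted p = 0.000708). At 24 h it was 0.45 ± 0.13 above the control (adjusted p = 0.0182), which was lost without G12-CBS 24 h replicate 3 (adjusted p = 0.098).

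YNL052W, another cytochrome c oxidase row, was highest in 72 h G12-CBS, where it read 7.05, 6.74 and 7.22. It read 6.41, 6.55 and 6.22 in the control, 6.52, 6.33 and 6.12 in DS56 and 6.24, 6.34 and 6.39 in 24 h G12-CBS, and all 9 of these values lay below the 3 of 72 h G12-CBS. The difference was 0.68 ± 0.14 (SE, n = 3 each) from DS56 and from the 24 h cultures (limma's adjusted p = 0.00166 for each) and 0.61 ± 0.14 from the control (adjusted p = 0.01). The last is the only call among the 18 rows between G12-CBS and the control at 72 h, and it was lost when only the 6 arrays compared set the spread (adjusted p = 0.142). The levels of YNL052W outside 72 h G12-CBS were below the median of all values, so the 1.61-fold change from 24 h is a ratio of measured values that includes any background signal.

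YDL067C read 7.49, 7.30 and 7.37 in the control, 7.62, 7.57 and 7.77 in DS56, 7.03, 7.01 and 7.20 in 72 h G12-CBS, and 7.25, 7.16 and 7.19 at 24 h. It was low in G12-CBS at both times, with all 6 arrays below those of the other strains. It passed in 1 comparison, with a log2 difference of -0.58 ± 0.12 between G12-CBS and DS56 at 72 h (SE, n = 3 each, limma's adjusted p = 0.00126). At 24 h G12-CBS was below DS56 with a difference of -0.45 ± 0.12 (adjusted p = 0.0794), and this difference passed with only the 6 arrays compared (adjusted p = 0.00641) and with array weights (0.00178). YHR051W, the fourth row of the class, passed in no comparison, with group means that spanned 0.24, though without control replicate 2 it was 0.47 higher at 24 h than in the control (adjusted p = 0.0318).

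The bc1 complex takes electrons from ubiquinol, and 1 of its 4 rows differed among the groups. YOR065W read 6.86, 6.68 and 6.77 in the control, 7.26, 7.33 and 6.98 in DS56, 7.05, 6.90 and 6.77 in 72 h G12-CBS, and 7.02, 7.23 and 7.22 at 24 h. The control arrays were below those of DS56 and of the 24 h cultures, and 72 h G12-CBS lay between and overlapped with both sides. YOR065W was 0.42 ± 0.13 higher in DS56 than in the control (SE, n = 3 each, limma's adjusted p = 0.0302) and 0.39 ± 0.13 higher at 24 h than in the control (adjusted p = 0.0405). Both calls were lost after median centring (adjusted p = 0.0535 and 0.0749), and the second also with a variance trend (0.0629) and with array weights (0.0578). The first was also lost with only the 6 arrays compared (0.0581) and without control replicate 2 or 3 or DS56 replicate 1 or 2 (0.0543 to 0.128), and the second without control replicate 2 or 3, DS56 replicate 1 or any 24 h array (0.054 to 0.139). YEL024W, YFR033C and YGR183C passed in no comparison, and the span of their group means was 0.15, 0.36 and 0.12. Without control replicate 2, YFR033C was 0.36 higher at 72 h than at 24 h in G12-CBS (adjusted p = 0.0377).

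Cytochrome c carries electrons from the bc1 complex to the oxidase and had 2 rows. YJR048W read 6.46, 6.60 and 7.09 in the control, 6.78, 6.70 and 6.60 in DS56, 6.26, 6.41 and 6.09 in 72 h G12-CBS, and 6.64, 6.75 and 6.67 at 24 h. The G12-CBS 72 h arrays were below the other 9. The log2 difference was -0.44 ± 0.15 from DS56 and from the 24 h cultures (SE, n = 3 each, limma's adjusted p = 0.0346 and 0.0366), and -0.46 ± 0.15 from the control (adjusted p = 0.0535, not past the threshold). Both calls were lost after median centring (adjusted p = 0.0582 and 0.0626) and after quantile normalization (0.0552 and 0.0583). They were also lost when 1 array was left out in 6 of 12 cases each: for DS56, without any DS56 array, G12-CBS 72 h replicate 1 or 3 or G12-CBS 24 h replicate 2 (0.0537 to 0.122), and for 24 h, without DS56 replicate 2, G12-CBS 72 h replicate 1 or 3 or any 24 h array (0.0574 to 0.126). The difference from the control passed without the dimmest rows (adjusted p = 0.0469), with the variance trend (0.0384), without control replicate 1, at -0.59 (0.0179), and without G12-CBS 72 h replicate 2, at -0.54 (0.0436). YEL039C passed in no comparison, and the span of its group means was 0.14.

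Of the carriers and porin, which exchange nucleotides and phosphate between mitochondrion and cytosol, YBL030C had a row. It read 10.76, 10.29 and 10.60 in the control, 10.21, 10.23 and 10.23 in DS56, 10.79, 10.90 and 10.76 in 72 h G12-CBS, and 10.21, 9.89 and 10.11 at 24 h. The division of YJR121W was turned round, with the 6 arrays of DS56 and of the 24 h cultures below the other 6. YBL030C was 1.51-fold higher in G12-CBS than in DS56 at 72 h, a log2 difference of 0.59 ± 0.13 (SE, n = 3 each, limma's adjusted p = 0.00301), and 1.68-fold higher at 72 h than at 24 h, a difference of 0.75 ± 0.13 (adjusted p = 0.000355). The 24 h cultures were below the control with a difference of -0.48 ± 0.13 (adjusted p = 0.0167), which was lost without control replicate 1 or G12-CBS 24 h replicate 2 (adjusted p = 0.0652 to 0.0977). The DS56 arrays were below the control arrays with a difference of -0.32 ± 0.13, short of the threshold (adjusted p = 0.1), and without control replicate 2 it was -0.45 (adjusted p = 0.0255).

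**Figure D3:**
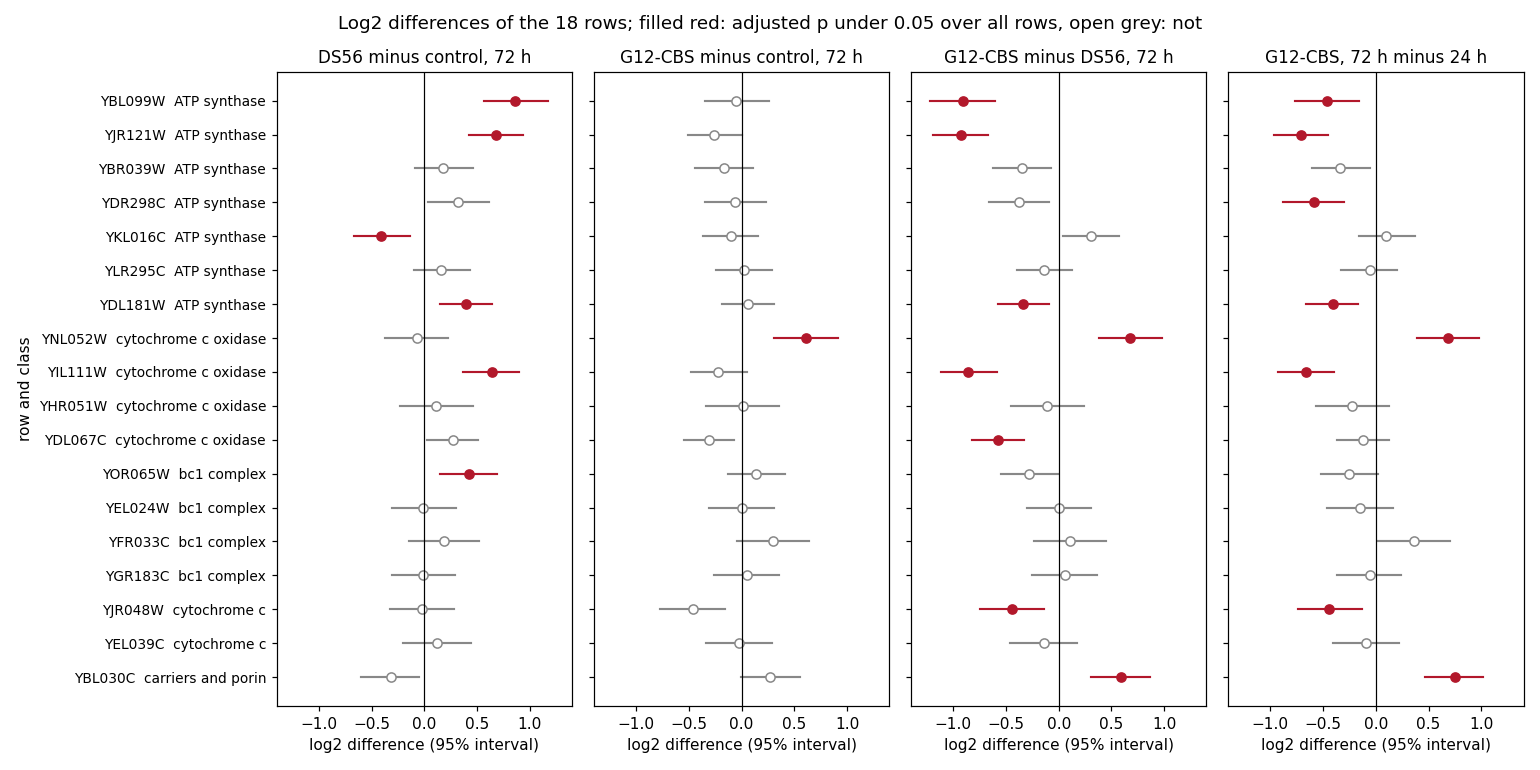
Log2 difference (horizontal axis) of the 18 rows (vertical axis, with class) in 4 comparisons, each with its 95% interval from limma. Filled red marks an adjusted p under 0.05 over all 2390 rows and open grey the rest. In the comparison of G12-CBS with the control YNL052W alone is red, while the other panels hold 6, 8 and 8 red rows.

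DS56 carries the methionine adenosyltransferase gene, and its comparison with the control asks what that gene changed under L-methionine feeding. Of the 18 rows 5 rose, 3 of ATP synthase, 1 of cytochrome c oxidase and 1 of the bc1 complex, against 12.1% of all rows, and 1 fell, against 6.07%. The median difference was 0.17 over the 18 rows and 0.04 over all rows. Of the 4 rows with a mean of at least 8, called bright from here on, 3 were called, all higher, against 55% of bright rows in either direction, and of the 14 dimmer rows 3 were, against 15.5%. The count of 6 became 3 when the spread came from the 6 arrays compared and 3 without DS56 replicate 2, with YBL099W and YJR121W among them each time. Calls over all rows fell too, from 433 to 301 with only the 6 arrays compared, and also without DS56 replicate 2. The lower counts are thus not particular to the 18 rows.

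At 72 h G12-CBS was compared with DS56 to see what the weak CYS4 promoter added. It was lower than DS56 in 6 of 18 rows, 3 of ATP synthase, 2 of cytochrome c oxidase and 1 of cytochrome c, against 14.1% of all rows, and higher in 2, YNL052W and YBL030C, against 8.33%. The median difference was -0.21, against -0.04 over all rows. All 4 bright rows were among the 8, against 53.1% of bright rows, and 4 of the 14 dimmer ones, against 20.2%. After median centring or quantile normalization 4 were lower and 3 higher: YDL181W and YJR048W were no longer called, and YKL016C was, at 0.35 and 0.36 (adjusted p = 0.0488 and 0.0399). This comparison and that of DS56 with the control share the DS56 arrays, so their opposite directions are not independent. YLR180W, noted for methionine adenosyltransferase, was also lower in 72 h G12-CBS than in DS56, with a log2 difference of -0.71 ± 0.16 (SE, limma's adjusted p = 0.00311). Whether the DS56 gene was equally expressed in both strains was not tested.

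Between G12-CBS and the control at 72 h, which differ by both engineering steps, YNL052W alone was called. That is 1 of 18 rows higher, against 5.02% of all rows, and 0 lower, against 4.18%, with 3 of 18 at an unadjusted p under 0.05, against 22.4% of all rows. None of the 4 bright rows was called, against 27.5% of bright rows, and 1 of the 14 dimmer ones was, against 7.89%. The median difference was -0.01, against -0.02 over all rows. Both groups here had the wider spread between replicates. The count was 2, with YJR048W lower, without the dimmest rows, with the variance trend, and without control replicate 1 or G12-CBS 72 h replicate 2.

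G12-CBS was compared between 72 h and 24 h, where induction time and feeding change as one. At 72 h 6 of 18 rows were lower, 4 of ATP synthase, 1 of cytochrome c oxidase and 1 of cytochrome c, against 14.6% of all rows, and 2 were higher, YNL052W and YBL030C, against 8.24%. The median difference was -0.19, against -0.05 over all rows. Again all 4 bright rows were called, against 58.1% of bright rows, and 4 of the 14 dimmer ones, against 20.3%. Without G12-CBS 24 h replicate 1 the count of 8 became 5, with 3 lower, and calls over all rows fell too.

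The 24 h cultures of G12-CBS and the 72 h cultures of DS56 differ in strain, time and feeding. None of the 18 rows passed limma's test between them, against 0.544% of all rows higher and 0.418% lower at 24 h. By level, 0 of the 4 bright rows were called, against 14.4% of bright rows. Of the 14 dimmer ones 0 were called, and 0 of all 2230 dimmer rows were. At an unadjusted p under 0.05 there were 2 of the 18 rows, YBL099W and YDL067C, against 5.77% of all rows. Both were called, lower at 24 h, with array weights or with only the 6 arrays compared, settings under which the calls over all rows also went from 23 to 76 and 66. Against the control at 72 h, from which they also differ in all 3 respects, the 24 h cultures were higher in 5 rows (YJR121W, YDR298C, YDL181W, YIL111W and YOR065W), against 12.9% of all rows. They were lower in YBL030C, 1 of 18, against 6.86%. By level, 3 of the 4 bright rows were called, against 59.4% of bright rows, and 3 of the 14 dimmer ones, against 16.9%. This count of 6 was 3 without G12-CBS 24 h replicate 3, where calls over all rows fell too. YBL099W, at 0.42 ± 0.15 (SE, n = 3 each, limma's adjusted p = 0.0512), was just short of the threshold. It passed in 8 of 20 alternatives, among them quantile normalization (0.0467) and a variance trend (0.0189).

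Other genes of the pathway were taken from lists of S. cerevisiae names, of which 30 of 66 had a row. In DS56 against the control 4 of the 30 rose and 2 fell, against 12.1% and 6.07% of all rows, with a median difference of -0.02. In G12-CBS against DS56 4 were higher and 5 lower, against 8.33% and 14.1%, with a median of -0.12. Between G12-CBS and the control 1 was higher and 1 lower, against 5.02% and 4.18%, with a median of -0.09. In 72 h G12-CBS against 24 h 3 were higher and 8 lower, against 8.24% and 14.6%, with a median of -0.21. The 24 h cultures were higher than DS56 in 1 and lower in 0, against 0.544% and 0.418%, with a median of 0.02, and higher than the control in 5 and lower in 2, against 12.9% and 6.86%, with a median of 0.13.

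A list of other subunits and isoforms had 7 rows. It was not divided by complex and can include ATP synthase. Among these 7 rows, YDR322C-A had the largest change. It stood at 9.06 ± 0.29 (SD, n = 3) in 72 h G12-CBS, 7.64 ± 0.07 in the control, 7.17 ± 0.08 in DS56 and 7.10 ± 0.10 at 24 h. The log2 difference of 72 h G12-CBS was 1.89 ± 0.14 (SE) from DS56, 1.42 ± 0.14 from the control and 1.96 ± 0.14 from 24 h (limma's adjusted p = 5.08e-09, 4.98e-07 and 1.69e-09). Against the control, YDR322C-A was lower in DS56 (-0.47 ± 0.14, adjusted p = 0.0236) and at 24 h (-0.54 ± 0.14, adjusted p = 0.00956). The first of these calls was lost without control replicate 1 or any DS56 array (0.0557 to 0.101), and the second without 24 h replicate 3 (0.0537). The sign of each of these differences of YDR322C-A was opposite to that of YJR121W. For YJR121W the difference of 72 h G12-CBS from the control was not called (-0.26, limma's adjusted p = 0.229). YDR322C-A was not counted in the ATP synthase class above. YNL052W was likewise highest in 72 h G12-CBS.

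The tricarboxylic acid cycle supplies the chain with NADH, and 5 of its 11 listed names had a row. In G12-CBS none of the 5 was called higher at 72 h than at 24 h and 3 were lower, YLR304C, YNL037C and YKL085W, against 8.24% and 14.6% of all rows, with a median difference over the 5 of -0.38. YKL085W, named after its values were seen, was not called without G12-CBS 72 h replicate 1 or 24 h replicate 1 or 3 (adjusted p = 0.0636 to 0.0974). YLR304C was at 11.90 ± 0.10 at 24 h and lower, at 10.72 ± 0.01, at 72 h (SD, n = 3 each, limma's adjusted p = 5.51e-07). It was at 11.30 ± 0.03 in the control and 10.91 ± 0.20 in DS56, and was lower in DS56 than in the control (adjusted p = 0.0332), where YJR121W and YBL099W were higher. That call was lost with only the 6 arrays compared (0.0731), with array weights (0.0643) and without any control array or DS56 replicate 1 or 3 (0.0515 to 0.178). YLR304C was also lower in 72 h G12-CBS than in the control, with a log2 difference of -0.58 (adjusted p = 0.00467). At 24 h it was higher than in DS56, with a difference of 0.99 (adjusted p = 3.7e-05). YNL037C was at 6.94 ± 0.08 in DS56, above the control at 6.41 ± 0.11 (adjusted p = 0.0071), and at 6.24 ± 0.18 in 72 h G12-CBS, below the 6.88 ± 0.12 of 24 h (adjusted p = 0.000942).

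Assembly factors, which build the complexes, had 15 rows. Of these, 2 were higher and 3 lower at 72 h than at 24 h in G12-CBS, against 8.24% and 14.6% of all rows, and 2 rose and 0 fell in DS56 against the control, against 12.1% and 6.07%. YAL039C had its highest mean in 72 h G12-CBS, at 7.97 ± 0.23 against 7.15 ± 0.08 at 24 h (SD, n = 3 each, limma's adjusted p = 0.000312) and 7.37 ± 0.10 in DS56 (adjusted p = 0.00496). The control was at 7.58 ± 0.26, from which 72 h G12-CBS was not called different (adjusted p = 0.1). YLL009C rose from 6.52 ± 0.24 in the control to 7.01 ± 0.09 in DS56 (adjusted p = 0.0245) and was lower in 72 h G12-CBS, at 6.56 ± 0.23, than at 24 h, at 7.04 ± 0.06 (adjusted p = 0.0201). The first of these calls was lost without control replicate 2 or any DS56 array (0.0549 to 0.111), and the second without G12-CBS 72 h replicate 2 or 24 h replicate 1 or 3 (0.0628 to 0.0959). The 2 rows of ubiquinone synthesis and the 1 row of the HAP complex, a regulator of respiratory genes in S. cerevisiae, had adjusted p-values of 0.093 or above in each of the 6 comparisons by limma.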

How the data were processed

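Per the labels' protocols, total RNA was labelled with Cy3 for NimbleGen arrays, and the series' design text gives 5777 genes with 8 probes each. The authors deposited log2 values, 1 for each row on each array. The submitters' processing notes name RMA; the sources used here give no version, background step, array design or row filter. Without detection flags, levels could not be set against background, and precision is limited by the 12 arrays.

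The table was used as deposited. A single limma model (limma 3.58.1, R 4.3.3, functions lmFit and eBayes) held all 4 groups, 12 arrays and 2390 rows, without a replicate block. P-values were two-sided and adjusted by Benjamini-Hochberg over all rows of each of 6 comparisons and of an F test, with a threshold of 0.05. SE is limma's moderated standard error. The model was tested on simulated data. No 2 arrays held identical values. Deviations from the group means correlated between same-numbered arrays at -0.12 to 0.18, with 2 of 18 pairs over 0.1, so the numbers were not taken to pair cultures. Alternatives were median centring, quantile normalization, a model of only the 6 arrays compared, the replicate block, array weights, a robust variance trend, dropping the dimmest 25% of rows, limma's treat at 1.2-fold, and each array left out in turn.

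Each of the 18 rows is named. Values per array are given for rows called in a comparison without overlap of its groups and for the brightest row of each class, and from the other pathway lists at most 2 called rows a direction are named for a comparison. The members, lists and the limit of 8 on a mean were chosen with earlier results of these data known. Figures were drawn with matplotlib 3.10.9.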

Additional observations from a re-analysis of the deposited data

How the results depend on the processing

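The 29 calls on single rows were refitted in 580 alternatives. None reversed, 488 passed the threshold and 92 did not, of which 50 left out an array and 21 were limma's treat at 1.2-fold. YBL099W and YJR121W in DS56 against the control and in G12-CBS against DS56 passed in all alternatives. So did YIL111W in G12-CBS against DS56, and YJR121W, YIL111W and YBL030C at 72 h against 24 h. These were 8 calls, and 16 calls, the 8 included, passed in every alternative other than treat. Of 36 calls on the other pathway lists, refitted in 718 alternatives, 558 passed, 160 did not and 0 reversed. Treat, which requires more than any difference, called 2 of the 18 rows for DS56 against the control, 3 for G12-CBS against DS56, 3 for 72 h against 24 h, and 0 each for G12-CBS and for its 24 h cultures against the control. When the fit held just the arrays compared, the count for DS56 against the control was 3, and calls over all rows went from 433 to 301. For G12-CBS against the control the count was 0, and calls over all rows went from 220 to 51. For 24 h against DS56 it was 2, which array weights also gave, and calls over all rows went from 23 to 66 and 76. G12-CBS against the control gave 2 without the dimmest rows and 2 with the variance trend, YJR048W being added each time. The cause was not tested. With 1 array left out, counts ran from 3 to 6 (DS56 against the control), 6 to 10 (G12-CBS against DS56), 1 to 2 (G12-CBS against the control), 5 to 9 (72 h against 24 h), 0 to 0 (24 h against DS56), 3 to 7 (24 h against the control) and 8 to 11 (F test). In the same order the replicate block gave 6, 7, 1, 8, 0, 7 and 9. The block lost YDL181W in G12-CBS against DS56 (limma's adjusted p = 0.0527) and YJR048W in the F test (0.0603), gained YBL099W at 24 h against the control (0.0404), and changed no other call on the 18 rows. The remaining settings left these counts within 1.5 times. Most of the 18 rows lie near the median of all values, and without detection flags their signal over background is unknown.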
